A study of Mus musculus with 2 samples.

Results

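The Dlx and Msx homeobox genes were examined in a list of chromatin regions that held more histone H4 signal after histone deacetylase inhibition than in solvent-treated osteoblasts. Members were all listed regions that overlapped, by at least 1 bp, 5 windows in genome build mm9, given for Dlx5 and Dlx6 (chr6:6740000-6870000), Dlx3 and Dlx4 (chr11:94940000-95040000), Dlx1 and Dlx2 (chr2:71330000-71420000), Msx1 (chr5:38170000-38250000) and Msx2 (chr13:53520000-53610000). Of 61400 listed regions, 31 met this rule. Of these, 18 lay in the Dlx5 and Dlx6 window, 5 in the Dlx1 and Dlx2 window, 4 in the Dlx3 and Dlx4 window, 4 in the Msx2 window and 0 in the Msx1 window. A gene annotation in mm9 was not used here, so the regions are placed within the windows and not against promoters or exons, and the fit of the windows to the genes was not checked.

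The data were chromatin immunoprecipitation followed by sequencing (ChIP-seq) from MC3T3 sc4, a line of mouse osteoblasts that originates from the calvaria, the flat bones of the skull vault. The labels name histone H4 as the antibody target, and the design text describes a map of its acetylation. On day 4 in osteogenic medium with ascorbic acid and beta glycerol phosphate, 1 culture received 20 µM SAHA for 2 hours (suberoylanilide hydroxamic acid, the drug vorinostat, which blocks histone deacetylases), and 1 received its solvent DMSO. Both groups had the same medium and a collagenase digest of 40 min with drug or solvent present.

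With 1 library per condition there was no replicate, so no difference was tested against the spread between cultures, and every interval below is a 95% interval that covers counting error only. The authors' caller kept 123676661 SAHA tags and 76214516 DMSO tags, which was 97.4% and 65.6% of each library, and weighed 1 DMSO tag as 1.62 SAHA tags. This unequal loss of duplicate tags and the treatment cannot be told apart. The list holds regions higher in SAHA only, so that a member is SAHA-high is a condition of the list and not a result. The score, summit fold and FDR of a region are the authors' values throughout. The score is −log10 of a Poisson p-value multiplied by 10, and 50 was the lowest listed. The FDR comes from the same calling with both libraries exchanged, as this caller is known to define it, and at 100% at least as many exchanged regions reached the score.

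Dlx and Msx proteins are homeodomain transcription factors that pattern the limbs, the skull and the jaws. In mammals the Dlx genes stand in tail-to-tail pairs, each with shared enhancers between and around its members. Acetylation of the histone H4 tail marks accessible, transcribed chromatin and active regulatory elements, and histone deacetylases remove it. In bone, Dlx5 and Dlx6 promote osteoblast differentiation, Dlx3 acts in bone, tooth and hair, Msx2 and Msx1 are largely repressors that act in skull and tooth growth, and Dlx1 and Dlx2 are best known from the jaw and from forebrain interneurons.

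In the RefSeq gene table of assembly GRCm38.p6, used for names and order only, Dlx6 and Dlx5 follow Sem1 and precede Sdhaf3. Dlx3 and Dlx4 lie between Itga3, an integrin subunit, and Tac4. Dlx1 and Dlx2 lie between Metap1d and Itga6, another integrin subunit. Msx1 lies between Cytl1 and Stx18, and the next coding gene after Msx2 is Drd1, a dopamine receptor.

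RefSeq promoter sequences (GRCm38.p6) were matched for 4 of the 8 genes, Dlx1, Dlx2, Msx1 and Msx2. The promoters of both Msx genes are printed because the window of one held 0 regions and that of the other 4. Each line gives the 250 bases upstream of the start, 5′ to 3′ on the minus strand, at chr5:37824586-37824835 for Msx1 and chr13:53472781-53473030 for Msx2. Capitals mark TAAT, the core that homeodomains bind, on either strand (ATTA on the other).
Msx1 promoter: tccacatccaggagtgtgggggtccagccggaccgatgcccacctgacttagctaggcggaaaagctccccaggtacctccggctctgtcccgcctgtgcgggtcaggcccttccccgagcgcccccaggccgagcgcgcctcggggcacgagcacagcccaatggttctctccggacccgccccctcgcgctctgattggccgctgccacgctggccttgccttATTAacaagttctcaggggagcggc
Msx2 promoter: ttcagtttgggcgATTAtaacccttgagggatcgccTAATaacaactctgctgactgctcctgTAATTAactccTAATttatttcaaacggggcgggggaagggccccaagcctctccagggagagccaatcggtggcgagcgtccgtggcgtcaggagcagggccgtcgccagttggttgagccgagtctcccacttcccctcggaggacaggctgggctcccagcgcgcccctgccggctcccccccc
The Msx1 stretch holds 1 TAAT match and the Msx2 stretch 5, of which 2 overlap in the palindrome TAATTA. Of 32851 RefSeq promoter stretches of the same length, 54.9% hold at least 1 TAAT match, 5.54% hold as many as Msx2, and 4.84% hold TAATTA. The stretches of Dlx1 and Dlx2 hold 0. All 4 stretches are rich in CpG, with 20 CpG dinucleotides in Msx1, 16 in Msx2, 22 in Dlx1 and 24 in Dlx2, against a median of 6 over all promoters. Of all promoters 17.9% hold as many as Msx1 and 25.4% as many as Msx2. Both Msx promoters are thus CpG-rich. Since no region was placed against a promoter, these matches describe the genes and are not tied to the ChIP signal.

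The Dlx5 and Dlx6 window carried most of the signal. Its 18 regions covered 54.2 kb, or 41.7% of 130 kb, and held 14700 of the 18560 SAHA tags in the 31 regions. The other windows with regions were sparse. The regions covered 8.31% of the Dlx1 and Dlx2 window, 7.01% of the Dlx3 and Dlx4 window and 5.63% of the Msx2 window. Over all 490 kb the covered share was 15.1%, and it was 5.43% without Dlx5 and Dlx6.

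**Figure D1:**
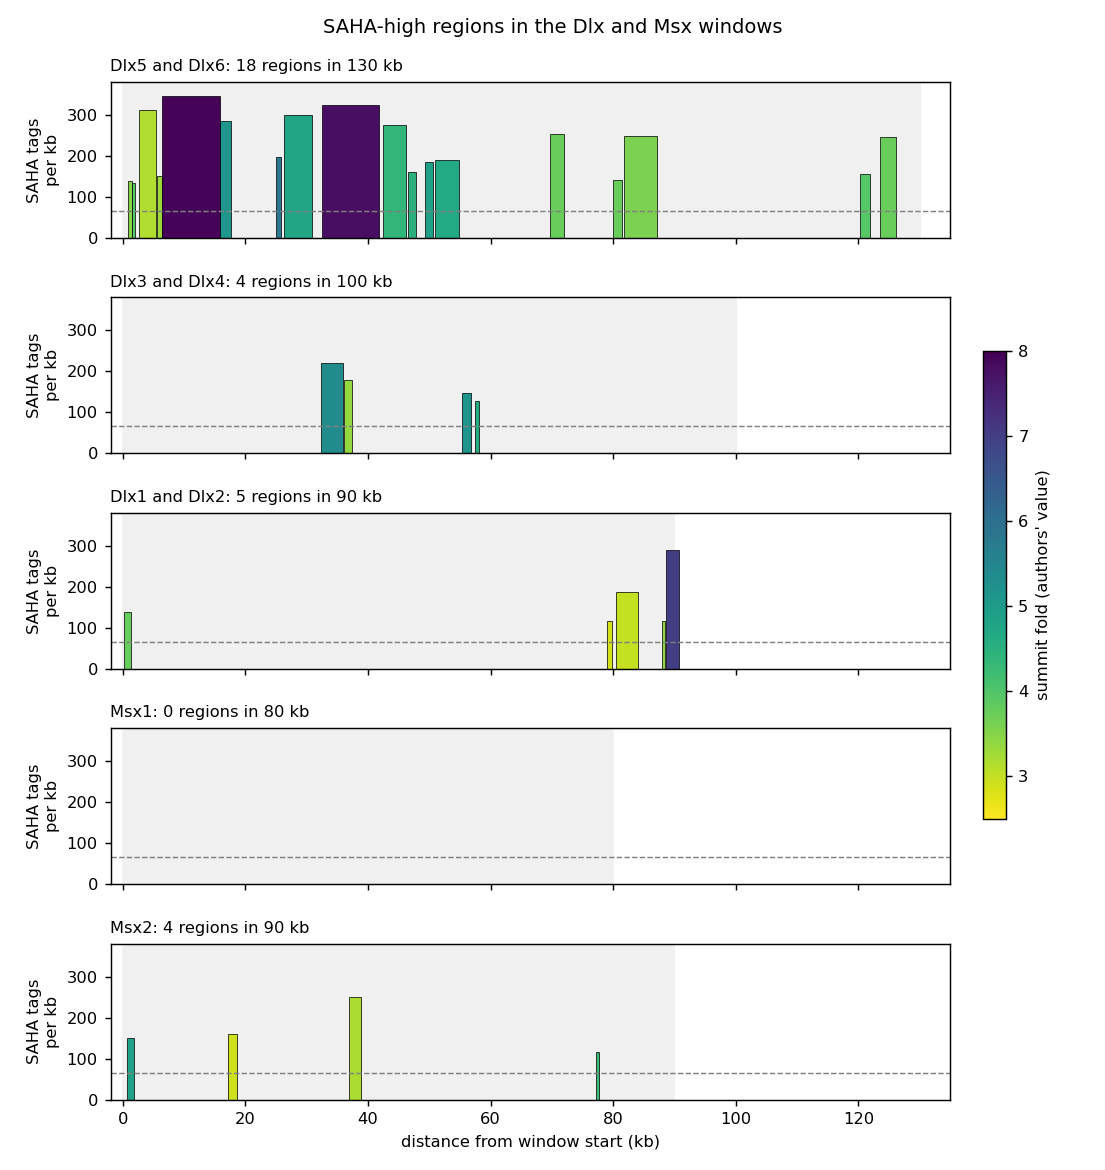
SAHA-high regions in the 5 windows, drawn to scale by distance from the window start (kb, x axis) and SAHA tags per kb (y axis), with the window shaded and the authors' summit fold as colour. The dashed line is the genome average of 66.1 tags per kb. The Dlx5 and Dlx6 window holds a dense stretch in its first 54.8 kb, and the Msx1 window is empty.

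SAHA tag density, counted over whole regions, was also highest at Dlx5 and Dlx6. It was 271.0 tags per kb (interval 266.6 to 275.4), which is 4.10 times the genome average. All listed regions together held 213.0 tags per kb, or 3.22 times the average, so Dlx5 and Dlx6 lay above the list. The other loci lay below this pooled value, to which long regions add most. Their pooled density was 194.6 tags per kb (185.2 to 204.4) at Dlx1 and Dlx2, 188.6 (178.6 to 199.1) at Dlx3 and Dlx4 and 187.0 (175.3 to 199.3) at Msx2. The median density of single regions was 160.1 tags per kb in the list. It was 222.0 at Dlx5 and Dlx6, 163.1 at Dlx3 and Dlx4, 154.6 at Msx2 and 139.2 at Dlx1 and Dlx2. The ratios that follow compare pooled densities. Dlx5 and Dlx6 regions were thus 1.39 times as dense as those at Dlx1 and Dlx2 (exact binomial interval 1.32 to 1.47), 1.44 times as dense as those at Dlx3 and Dlx4 (1.36 to 1.52) and 1.45 times as dense as those at Msx2 (1.36 to 1.55). Among the last 3 windows the intervals of all 3 pairwise ratios included 1.

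At Dlx5 and Dlx6, 13 of the 18 regions formed 1 stretch at chr6:6740912-6794803. There 75.9% of 53.9 kb was covered, and 11695 tags, 79.6% of those in the window, gave 286.1 tags per kb (280.9 to 291.3). A pair of regions led it. The region at chr6:6746423-6755865 was 9443 bp long and held 3267 SAHA tags, or 346.0 per kb (334.2 to 358.0). Its summit fold of 7.94 was the highest of the 31, and 1.25% of all listed regions had as high a fold. It was also the longest and the densest member, and 1.59% of all regions were as long.

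The region at chr6:6772430-6781841 came close to it. It was 9412 bp long, with 3049 tags, 323.9 per kb (312.6 to 335.7), and a summit fold of 7.79. Both had scores near the top of the list, 3012.42 and 2943.30, and an FDR of 100%. Between them stood chr6:6764997-6765797, a short region of 801 bp whose 158 tags had a summit fold of 5.83. Next to it, chr6:6766297-6770927 held 1383 tags over 4631 bp with a fold of 4.76, and its summit lay 448 bp from its first base. The longer of these had 298.6 tags per kb (283.1 to 314.8). This interval included the 286.1 of the whole stretch, of which the region is a part.

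The first leading region was flanked by smaller ones. Before it, 4 regions at chr6:6740912-6746400 had folds of 3.15 to 3.93. They included chr6:6742659-6745429, with 862 tags at 311.1 per kb, the third highest density of the 31, yet a score of only 82.16. The other 3 held 59 to 119 tags. After it came chr6:6755919-6757665, with 496 tags and a fold of 5.11. Beyond the second leading region, 4 regions at chr6:6782424-6794803 held 1035, 209, 233 and 741 tags, with folds of 4.37 to 4.85. Of the 17 gaps between the 18 regions, 10 were 1 kb or shorter, so that joining across such gaps left 8.

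The remaining 5 regions of the window held 3005 of its 14700 tags, with scores of 97.83 to 455.64. A group of 3 at chr6:6809755-6827202 had folds of 3.59 to 3.76 and 231.0 tags per kb (221.3 to 241.1). Its main region, chr6:6821825-6827202, was 5378 bp long with 1336 tags. The last 2, at chr6:6860266-6861910 and chr6:6863577-6866161, held 256 and 638 tags, with folds of 3.94 and 3.75 and a joint density of 211.3 tags per kb (197.7 to 225.7). Density thus fell from the first stretch to the last, with intervals of the first and the others that did not overlap.

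The window edges cut these regions differently on either side. On the low-coordinate side the first stretch ran on, since joining across gaps of up to 10 kb added 5 regions before the window. The joined cluster, chr6:6721877-6794803, held 18 regions over 72.9 kb, and 7 of the 1091 such clusters on chromosome 6 held as many. The nearest outside region ended 2.91 kb before the window and had 103 tags and a fold of 3.65. On the other side no region was listed for 862.1 kb after the last member, and 1.04% of the 2890 gaps on the chromosome were as long. This share counts gaps, with a median of 4.62 kb, and not bases. Listed regions thus continued on the first side and stopped on the second.

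The Dlx3 and Dlx4 window held 4 regions in 2 pairs. The first pair was led by chr11:94972349-94975944, 3596 bp long with 793 tags, 220.5 per kb (205.4 to 236.4), a fold of 5.35 and an FDR of 100%. It was the longest and densest here and had the highest fold. Its neighbour at chr11:94976026-94977319 held 232 tags with a fold of 3.39. The second pair, chr11:94995418-94996840 and chr11:94997413-94998112, held 209 and 89 tags with folds of 5.16 and 4.61. Of the 4 windows with regions, this one had the highest median fold, 4.89, over only 4 regions. The nearest outside regions stood 12.4 kb before the window, with 217 tags, and 6.81 kb after it, with 412 tags.

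In the Dlx1 and Dlx2 window the regions lay at the edges. A single region, chr2:71330153-71331280, held 157 tags with a fold of 3.75 at the first edge, and no region was listed over the next 77.7 kb. Of the gaps on chromosome 2, 6.62% were as long, a share that counts gaps and not bases. This gap was picked as the largest in the window. The other 4 regions lay in the last 11.0 kb of the window. The strongest, chr2:71418602-71420686, held 601 tags at 288.2 per kb (265.7 to 312.2) with a summit fold of 7.03, the third highest of the 31, and crossed the window edge. The longest, chr2:71410488-71414047, held 669 tags over 3560 bp with a fold of 2.99. The remaining 2, of 800 and 591 bp, held 93 and 69 tags. These 4 belonged to a cluster of 8 regions that ran on to base 71437289, so the count at this locus depends on where the window ends.

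The Msx2 window held 4 single regions, 15.4 to 38.2 kb apart. In order they held 178, 208, 489 and 73 tags. The first, chr13:53520700-53521886, had the highest fold, 4.83, and a score of 217.08, the only one of the 4 above 100. The longest and densest was chr13:53556983-53558931, with 1949 bp and 250.9 tags per kb (229.2 to 274.2), but its fold was 3.19 and its score 65.98. The second, chr13:53537248-53538554, had a fold of 2.91, and the last, chr13:53597131-53597756, a fold of 4.26 at a score of 54.13. The nearest outside regions stood 67.8 kb before the window, with 216 tags and a fold of 5.04, and 5.09 kb after it, with 377 tags.

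The Msx1 window held no listed region. The nearest ones were chr5:38143690-38145660, with 286 tags and a fold of 4.93, which ended 24.3 kb before the window, and chr5:38350505-38351125, with 78 tags and a fold of 3.14, which began 100.5 kb after it. The gap between them was 204.8 kb, and 2.78% of the 3452 gaps on chromosome 5 were as long. This share counts gaps and not bases. The median gap was 2.95 kb, and a fixed place falls in a long gap more often than this share. Of 1862 stretches of the window's length on chromosome 5, 61.0% held no region. An empty window means that no stretch passed the authors' score cutoff in the SAHA-high direction. It does not give the H4 signal there in either library.

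Each window was then set among tiles of its own length, laid end to end along its chromosome between the first and last listed region, with the window itself as 1 of the tiles. For Dlx5 and Dlx6, 21 of 1122 tiles of chromosome 6 (1.87%) held 18 or more regions, and 17 (1.52%) had as much covered length. On all autosomes these shares were 3.78% and 1.48%, so the rank by count was lower there. Of the chromosome 6 tiles, 56.0% held no region, and the median of those with any was 4. Among those 494 tiles, 14.6% had as many SAHA tags per kb of region, against 6.09% of such tiles on all autosomes. Among the same 494 tiles, 4.25% held as many regions and 3.44% had as much covered length.

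The other windows were ordinary for their chromosomes. For Dlx3 and Dlx4, 37.2% of 1185 tiles on chromosome 11 held as many regions and 34.9% as much covered length. For Dlx1 and Dlx2 the shares of 1980 tiles on chromosome 2 were 21.9% and 24.3%. For Msx2 they were 23.7% and 23.2% of 1295 tiles on chromosome 13. Among tiles with a region, those of at least the same tag density made up 50.8%, 47.3% and 29.0%. For Msx1, 61.0% of 1862 tiles on chromosome 5 held no region either. Tiles are neighbours on 1 chromosome of the same libraries, and the shares are ranks, not tests.

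**Figure D2:**
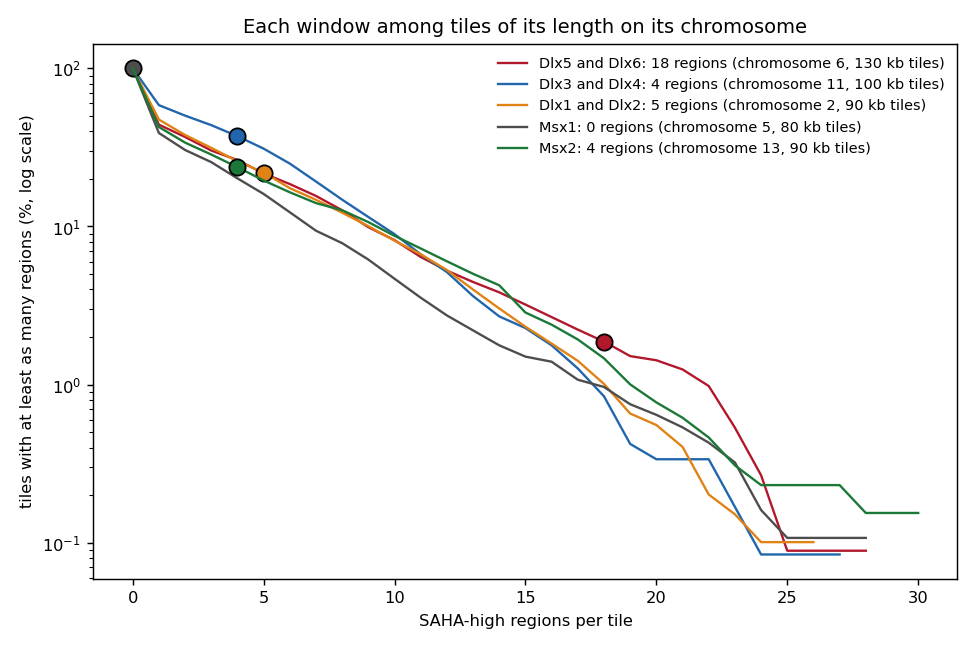
Share of tiles (%, log scale) that hold at least a given number of SAHA-high regions (x axis), 1 line per chromosome and tile length. Circles mark the 5 windows, with Dlx5 and Dlx6 at 18 regions and 1.87% of tiles, Dlx3 and Dlx4 at 37.2%, Dlx1 and Dlx2 at 21.9%, Msx2 at 23.7% and Msx1 at 0 regions.

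The list gives no DMSO value, so the local DMSO level the caller compared with was recovered from score and tags, at SAHA depth. It could be recovered for 30 of the 31 regions. In 21 it equalled a background the caller could have used, which makes it the most that the DMSO signal can have been, and makes the ratio, SAHA tags divided by this level, the least. In 4 of these 21 the background was the genome average of SAHA tags, which holds no DMSO count. In 9 of the 30 the level matched none and is approximate, against 24.2% of all listed regions with a level. Among the members none matched the DMSO count of the region itself, while 8361 of the 61106 listed regions with a level did. Levels below are multiples of the genome average.

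The recovered DMSO level, an upper limit or approximate, was higher by its median in the Dlx5 and Dlx6 window than in the list. Its median was 1.55 times the average (range 1.00 to 3.85, 17 regions), against 1.29 over all 61106 regions with a level. A level of at least 2 times the average was found in 8 of these 17 regions, in 2 of the 13 at the other loci and in 16.1% of all regions. The highest, 3.85, was at chr6:6742659-6745429, where it matched 157 DMSO tags in 1 kb. At Msx2 the densest region had a level of about 3 times the average, and at Dlx1 and Dlx2 the region of fold 7.03 had 2.38. In both windows the densest region thus also had the highest recovered DMSO level. This did not hold at Dlx5 and Dlx6, where the level of the densest region was at most 2.53, below the highest of 3.85. Nor did it hold at Dlx3 and Dlx4, where the levels ran from 1.00 to 1.52. There the densest region had 1.48 and its neighbour 1.52.

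**Figure D3:**
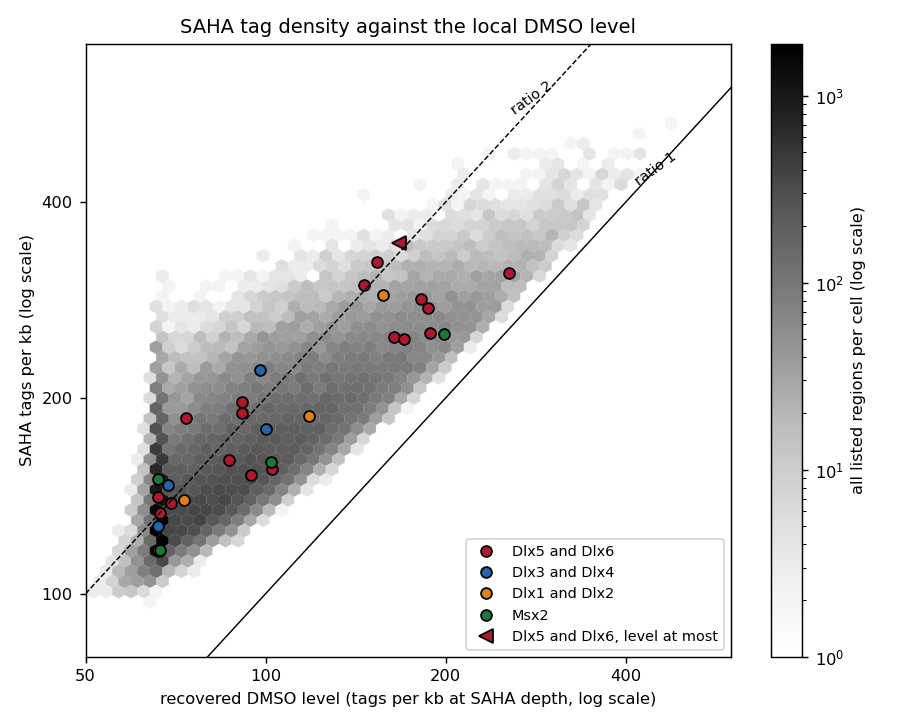
SAHA tags per kb (y axis, log scale) against the recovered DMSO level (x axis, tags per kb at SAHA depth, log scale) for the member regions, over all listed regions in grey. Lines mark ratios of 1 and 2, and the triangle is the longest Dlx5 and Dlx6 region, whose level is a limit. Member regions lie within the range of all regions and fill only a part of it, with ratios of 1.22 to 2.52.

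The ratio of SAHA tags to the DMSO level was near that of the whole list. Its median was 1.81 over the 30 member regions and 1.80 over all regions. The latter also takes in regions matched to their own DMSO count, which the members lack. By locus the medians were 1.85 at Dlx5 and Dlx6, 2.03 at Dlx3 and Dlx4, 1.77 at Dlx1 and Dlx2 and 1.65 at Msx2. The ranges of single regions overlapped between all 4 loci. A ratio of at least 2 was found in 9 of the 30 (30%), against 28.0% of all regions.

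At Dlx5 and Dlx6 the leading regions had ratios above the median. For chr6:6772430-6781841 it was about 2.11 (2.04 to 2.19). For chr6:6746423-6755865, whose score was too high for an exact level, it was at least 2.07. The highest recovered value among the members, about 2.52 (2.21 to 2.87), was at chr6:6789327-6790579, a region of 1253 bp with 233 tags and a level of 1.11. The lowest, at least 1.22 (1.14 to 1.31), was at chr6:6742659-6745429, the region of highest recovered DMSO level. Since most ratios are lower limits, these values do not rank the true ratios. The median was 1.99 in the first stretch (12 regions, range 1.22 to 2.52), 1.52 in the second (3 regions, 1.34 to 2.13) and 1.48 in the third (2 regions, 1.45 and 1.52), so single regions of the stretches overlapped.

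At the other loci the highest recovered ratios were at least 2.25 (2.10 to 2.41) at chr11:94972349-94975944, about 1.91 (1.62 to 2.23) at chr2:71330153-71331280 and at least 2.27 (1.95 to 2.63) at chr13:53520700-53521886. The region of fold 7.03 at Dlx1 and Dlx2 had a whole-region ratio of at least 1.83 (1.69 to 1.98). The fold is the authors' value at the summit, while the ratio takes the whole region. Whether both rest on the same level was not checked. The densest Msx2 region, chr13:53556983-53558931, had a ratio of about 1.26 (1.15 to 1.38). These intervals come from the SAHA tags alone.

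By fold and score the 31 regions were close to the list as a whole, and by tag density those at Dlx5 and Dlx6 were higher. A summit fold of at least 5 was found in 7 (22.6%), against 19.0% of all regions, and a score of at least 100 in 20 (64.5%), against 62.5%. No member had a low FDR. It ran from 58.3% to 100% with a median of 68.4%, against a lowest of 58.2% and a median of 68.1% in the list. An FDR of 100% was found in 5 members (16.1%), against 11.6%. A length over 5 kb was found in 3 (9.68%), all at Dlx5 and Dlx6, against 7.85%. At least 200 SAHA tags per kb were found in 12 (38.7%), against 24.3%. These were 9 of the 18 at Dlx5 and Dlx6 (50%) and 3 of the 13 at the other loci (23.1%). The median fold was 3.94 in the members and 3.93 in the list, and the median length 1553 and 1337 bp. By locus the median length was 1976.5 bp at Dlx5 and Dlx6, 1358.5 bp at Dlx3 and Dlx4, 1247 bp at Msx2 and 1128 bp at Dlx1 and Dlx2. With 31 regions from 4 places, which share their surroundings, no difference between these shares was tested.

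**Figure D4:**
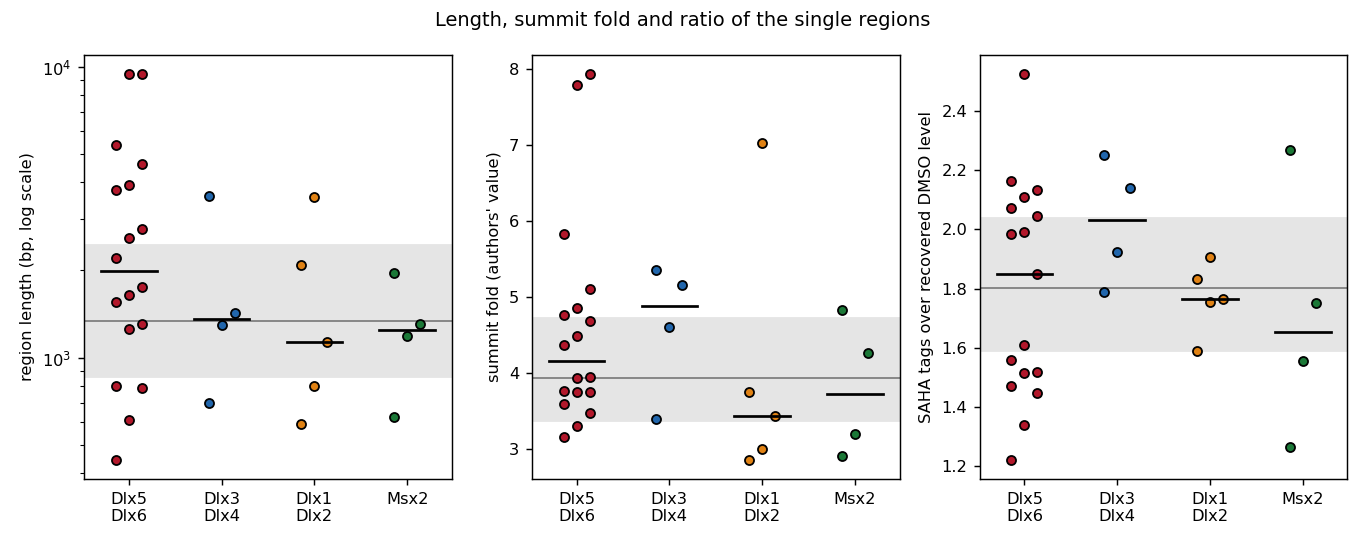
Length (bp, log scale), authors' summit fold and ratio of SAHA tags to the recovered DMSO level for each member region by locus, with the locus median as a bar. The grey band and line are the quartiles and median of all listed regions. Dlx5 and Dlx6 hold the longest regions, while the median ratios, 1.65 to 2.03, lie within the band. The ratio panel leaves out the longest region, which has a limit only, and Msx1 has no region to plot.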

How the data were processed

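The 2 ChIP-seq libraries (1 SAHA, 1 DMSO) were read from 1 list of regions in build mm9. The submitters' processing notes name MACS 1.4.0rc2, BWA 0.5.9, CASAVA 1.7.0 and SAMtools. Per the file headers, MACS called SAHA against DMSO at a p cutoff of 1e-05 and kept at most 3 duplicate tags per position. The deposited columns hold whole counts of SAHA tags, a score, a fold enrichment (ratio) at the summit and an FDR in percent. Other columns give positions.

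Computed here with Python 3.11.15, numpy 2.4.6, pandas 2.3.3 and scipy 1.17.1 were counts, covered length, tag density, tile ranks and the DMSO level. The level is the Poisson mean under which a count above the listed one has the p-value of the score, for scores under 3000. A match to a background allowed 0.005 in the score. On a simulated SAHA against DMSO list, 99.7% of 3906 regions were given the right background, with 1 kb and 10 kb taken as the same. Every simulated region had a background the caller could have used, so the simulation does not cover regions that match none. Intervals are exact Poisson unless named otherwise.

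The windows, members and lists were chosen with earlier results of these data known. Planned for naming in each window were the regions of highest fold, length, density and ratio. Further regions named by their coordinates were added to this plan with their values known. The rest are given by order, range and count. Planned counts at other BMP and osteoblast genes were not made, because no mm9 annotation was used. Alternatives tried were stricter scores and folds, other window edges, joined regions and other tiles.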

Additional observations from a re-analysis of the deposited data

How the results depend on the processing

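No paired analysis was possible because each condition had 1 library, and no alternative can stand in for replicates. The 31 regions became 20 with scores of 100 or more, 7 with a summit fold of 5 or more, 17 when joined across gaps of up to 1 kb and 13 without the Dlx5 and Dlx6 window, which was added after the data were seen. Stricter limits, joining and leaving out a window must lower a count. The covered share, 15.1% as reported, was 12.6% at the score limit, 5.68% at the fold limit, 13.2% with windows widened by 25 kb, 14.8% for regions wholly inside and 5.43% without Dlx5 and Dlx6. SAHA tags per kb, 249.2 as reported, were 259.5 at the score limit, 300.7 at the fold limit, 238.5 in widened windows and 190.7 without Dlx5 and Dlx6. The median ratio, 1.81 as reported, was 2.12 at the fold limit and 2.94 with no depth scaling. The last value raises each ratio by 1.62 times. It does so also for the 4 regions whose level equalled the genome average of SAHA tags, which takes no such scaling. Wider windows gave Msx1 1 region, and Dlx1 and Dlx2 9.

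For Dlx5 and Dlx6, the share of tiles with as many regions was 4.25% among tiles with at least 1 region and 3.78% on all autosomes, and that with as much covered length 0.534% with tiles shifted by 0.5 of a window and 3.44% among tiles with a region. Leaving out empty tiles must raise such a share. It also gave 63.6% and 59.7% for Dlx3 and Dlx4, 46.2% and 51.3% for Dlx1 and Dlx2, and 55.7% and 54.4% for Msx2. At the score limit the shares by count and by covered length were 32.8% and 30.8% for Dlx3 and Dlx4 and 36.4% and 32.7% for Msx2. At the fold limit they were 14.7% and 13.0% for Dlx3 and Dlx4, and 19.3% by covered length for Dlx1 and Dlx2. On all autosomes they were 25.3% and 23.3% for Dlx3 and Dlx4, 19.5% and 20.9% for Dlx1 and Dlx2, and 25.6% by covered length for Msx2. What caused the remaining shifts was not tested. For tag density, Msx2 went from 29.0% to 84.6% of tiles at the score limit, which left it 1 region, and Dlx1 and Dlx2 from 47.3% to 15.5% at the fold limit, also with 1 region left. At the fold limit Msx2 had no region and gave no share. Of the 62 main values recomputed, 25 stayed within their interval or within 1.5 times the count. These intervals do not allow for neighbouring tiles, bases and regions that share their surroundings. The count of 25 is therefore a description and not a measure of stability.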

Other observations

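Longer regions were denser and had a higher recovered DMSO level, in the members as in the whole list. Spearman's rho between length and SAHA tags per kb was 0.85 over the 31 member regions and 0.74 over all 61400. Between length and the recovered DMSO level it was 0.72 over 30 member regions and 0.66 over 61106. Between that level and the ratio, rho was −0.65 in the members and −0.63 in the list, where part of the relation is built in because the level is the divisor. The points share 1 pair of libraries, and neighbouring members share their surroundings.

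The summit lay within 25% of the region's length from either end in 8 of the 31 member regions (25.8%) and in 22.3% of all regions. In 2 Dlx5 and Dlx6 regions it lay close to the first base, at 7.69% of the length in chr6:6790889-6794803 and at 9.67% in chr6:6766297-6770927, both chosen after their values were seen.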
